A study of Drosophila melanogaster with 18 samples.

Results

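Actin, tubulin and motor protein genes were taken from the deposited lists of genes bound by the transcription factor Ets21c and by RNA polymerase II (PolII) in the adult Drosophila midgut. A gene was a member if its symbol began with Act and a digit, alphaTub, betaTub or gammaTub, Klp, Khc, Dhc, Dlc, Arp and a digit, Arpc, or Myo and a digit. The rule found 33 members among the 7153 genes that appeared in at least 1 of the 4 lists. The current fly annotation holds 58 genes with such symbols, all protein-coding. Of the others, 24 were in none of the lists used here, and 1, betaTub65B, was listed under an older symbol.

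Binding was measured by TaDa, in which a protein fused to the bacterial methylase Dam methylates GATC sites near the DNA it contacts, and the methylated fragments are amplified and sequenced. The series had 18 samples in 6 groups of 3, in mated adult females that expressed Ets21c fused to Dam (UAS-LT3-Dam-ets21c-RA), PolII fused to Dam (UAS-LT3-Dam-PolII) or Dam alone (UAS-LT3-Dam) for 72 h at 29°C. Each was driven in intestinal stem cells and enteroblasts (ISCs/EBs) by esg-Gal4 or in enterocytes (ECs) by Myo1A-Gal4. All 6 groups also carried UAS-GFP and the temperature-sensitive repressor tub-Gal80-TS. Flies were collected as adults over a few days before the shift, none was exposed to a stressor, and each sample pooled whole midguts without the proventriculus. The esg driver does not separate ISCs from EBs, and the Myo1A driver is named after the older name of a member, Myo31DF. The tub promoter of the repressor is that of another member, alphaTub84B, so every group held a transgenic copy of that promoter. The Ets21c fusion carried the RA isoform only.

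Actin filaments shape the cell cortex and, in absorptive gut cells, fill the microvilli of the brush border, where class I myosins link them to the membrane. Microtubules of alpha- and beta-tubulin form the mitotic spindle of dividing stem cells and are tracks for kinesins and dyneins, which carry cargo in opposite directions. The Arp2/3 complex starts new actin branches from existing filaments.

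The value of a gene in a list was its height, given by the authors as log2 of the signal of the Dam fusion relative to that of Dam alone. Each gene had 1 height and 1 false discovery rate (FDR) per list, pooled over replicates, 2 of 3 for Ets21c and 3 for PolII. No value of a single sample was used here, so there was no spread between replicates, no difference below was tested, and read depth is unknown. Ets21c and PolII heights of a cell type were made against the same Dam-alone samples and are given side by side only. ISCs/EBs and ECs each had their own Dam-alone samples. Ets21c peaks were assigned to genes within 5 kb, and peak positions were not used here, so whether a peak lay in a promoter, exon or intron cannot be told. Markers of the driven cells were looked up first. PolII was listed at 8 of 8 ISC/EB markers in ISCs/EBs and at 0 in ECs, and at 3 of 7 EC markers in ISCs/EBs and 3 in ECs, so the EC markers did not tell the cell types apart. None of 5 enteroendocrine and 6 muscle markers was in either PolII list, while in the Ets21c lists pros was listed in ISCs/EBs and AstA and wupA in ECs.

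The DNA just upstream of 6 members is shown because these are the members on which the results below turn. Myo61F and Myo28B1 had the largest Ets21c heights in ISCs/EBs, Arpc2 had the largest in ECs, Act79B was on the Ets21c lists alone, Act5C had a value in all 4 lists, and alphaTub84B was on a PolII list alone. The stretches are from release 6 of the genome (dm6), plus strand, and end at the base before the annotated gene start: Myo61F at chr3L:1318331-1318479, Myo28B1 at chr2L:7665797-7666046, Arpc2 at chr2L:20416919-20417056, Act79B at chr3L:21984960-21985209, Act5C at chrX:5900611-5900860 and alphaTub84B at chr3R:7086349-7086598. Those of Myo61F and Arpc2 are shorter because exons of the neighbouring genes Herc4 and CG10949 lie beyond, and that of Myo28B1 lies within an intron of Slob. Capitals mark CCGGAA, a form of the motif that ETS-domain factors recognise, on either strand, and GATC, the site that Dam methylates.
Myo61F: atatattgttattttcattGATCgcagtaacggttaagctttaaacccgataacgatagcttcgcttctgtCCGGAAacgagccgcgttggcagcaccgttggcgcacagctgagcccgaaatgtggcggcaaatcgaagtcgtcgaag
Myo28B1: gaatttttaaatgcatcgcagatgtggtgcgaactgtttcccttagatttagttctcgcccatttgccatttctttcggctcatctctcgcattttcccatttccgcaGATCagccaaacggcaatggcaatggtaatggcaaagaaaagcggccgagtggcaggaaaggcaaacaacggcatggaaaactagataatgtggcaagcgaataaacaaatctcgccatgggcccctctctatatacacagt
Arpc2: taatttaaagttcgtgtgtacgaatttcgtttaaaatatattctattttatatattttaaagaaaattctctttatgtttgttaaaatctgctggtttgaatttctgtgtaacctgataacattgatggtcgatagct
Act79B: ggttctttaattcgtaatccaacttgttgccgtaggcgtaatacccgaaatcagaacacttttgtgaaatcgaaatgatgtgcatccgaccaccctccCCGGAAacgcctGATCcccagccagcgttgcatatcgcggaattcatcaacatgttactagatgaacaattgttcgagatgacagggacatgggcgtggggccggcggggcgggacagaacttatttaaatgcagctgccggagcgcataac
Act5C: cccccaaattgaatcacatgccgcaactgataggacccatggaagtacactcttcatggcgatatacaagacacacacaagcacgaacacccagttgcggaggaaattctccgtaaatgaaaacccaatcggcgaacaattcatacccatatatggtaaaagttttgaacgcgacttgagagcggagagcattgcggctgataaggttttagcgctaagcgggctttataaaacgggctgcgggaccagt
alphaTub84B: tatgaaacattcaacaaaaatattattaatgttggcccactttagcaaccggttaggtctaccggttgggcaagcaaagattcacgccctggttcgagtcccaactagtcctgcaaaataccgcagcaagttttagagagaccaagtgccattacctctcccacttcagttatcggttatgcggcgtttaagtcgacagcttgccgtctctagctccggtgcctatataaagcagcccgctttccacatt

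CCGGAA stood 78 bases before the start of Myo61F and 152 bases before that of Act79B, and the other stretches did not hold it. No match to one motif overlapped a match to the other. Over windows of 250 bases upstream of the start, 3 of 33 members (9.09%; Act79B, Dhc62B and Myo61F) held CCGGAA on either strand, beside 745 of 13968 protein-coding genes (5.33%). GATC, the same on both strands, was in the windows of 13 members (39.4%) and of 38.1% of protein-coding genes. TGANTCA, the form bound by AP-1 factors, was in those of Act5C and Arpc5 (6.06%) and of 5.15% of protein-coding genes.

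Ets21c was listed at 23 members in ISCs/EBs and 21 in ECs, with a median height of 0.54 and 0.58. The 23 members were 39.7% of the 58 annotated genes, beside 28.9% of all annotated genes and 31.9% of protein-coding genes in the Ets21c list of ISCs/EBs. In ECs the 21 members were 36.2%, beside 27.1% of all annotated genes and 30.3% of protein-coding genes. That count was made by listed symbol and leaves out betaTub65B. By current symbols the Ets21c list of ECs held 22. PolII was listed at 13 members in ISCs/EBs (22.4%), beside 12.4% of all annotated genes and 15.8% of protein-coding genes. For ECs the PolII list held 5 members (8.62%), beside 5.3% of all annotated genes and 6.77% of protein-coding genes. In each list the members' share was thus above the share of protein-coding genes but near it, and with 5 to 23 genes a list the gap is a matter of a few genes. The listed members were also long, with a median gene length of 4411 bp and 15 GATC sites, beside 2162 bp and 10 sites for protein-coding genes. For all 58 annotated genes, the base of the shares, the medians were 2896 bp and 16 sites. For the 24 genes in no list they were 2455 bp and 17.5 sites. The part of length in these shares was not tested.

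**Figure D1:**
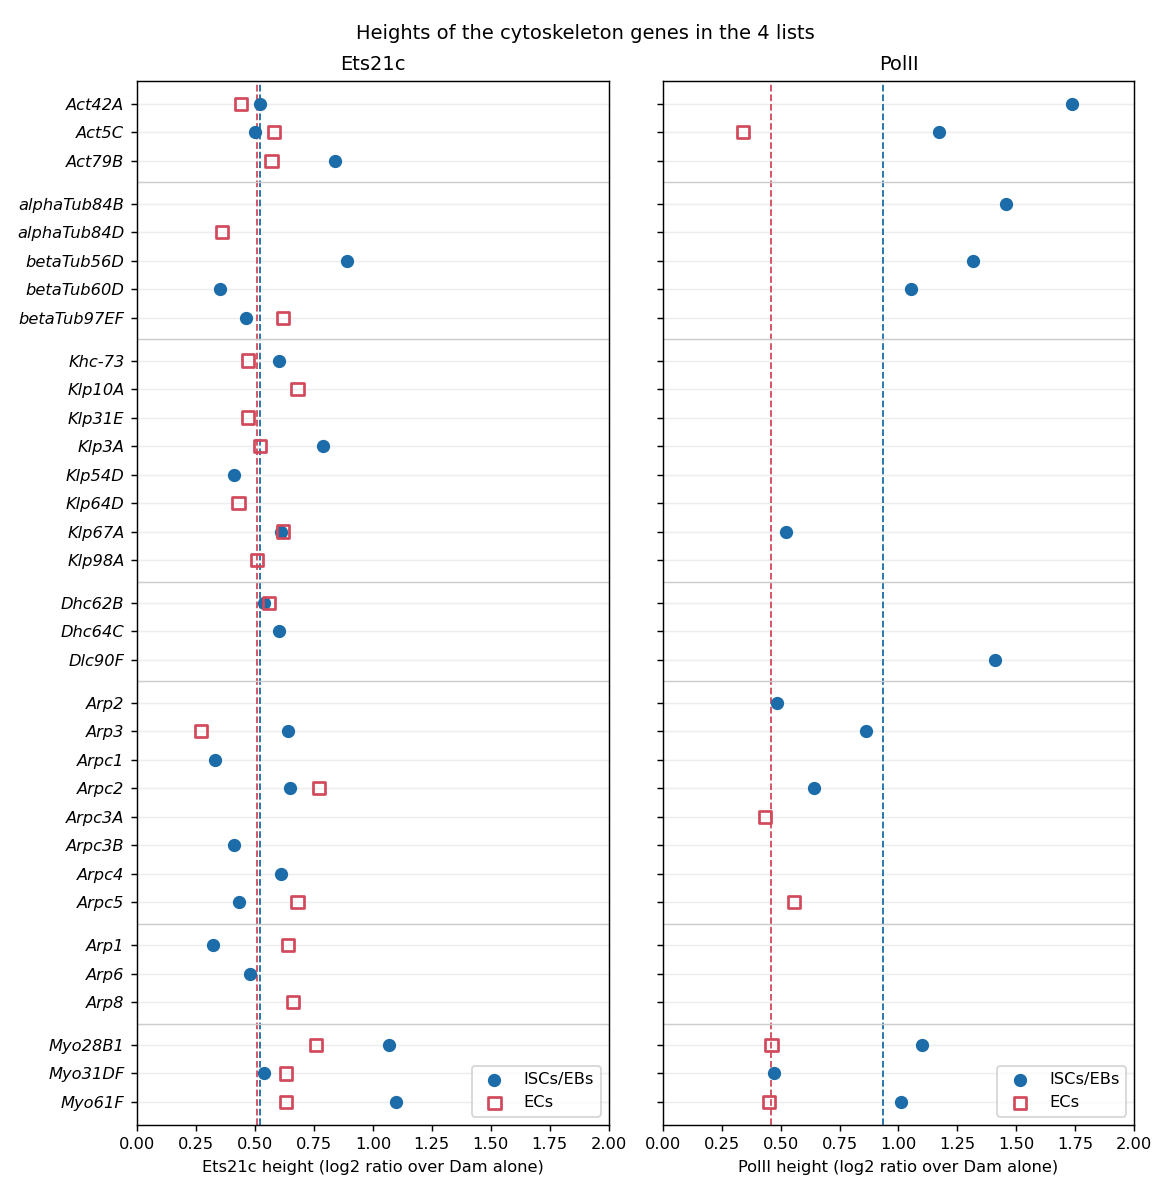
Heights of the 33 members (rows, grouped by actins, tubulins, kinesins, dyneins, Arp2/3 complex, other actin-related proteins and myosins) for Ets21c (left) and PolII (right), as log2 ratio over Dam alone; filled circles are ISCs/EBs, open squares are ECs, dashed lines are the medians of all genes of each list, and a missing symbol means that the gene was not in that list. Ets21c heights lay between 0.27 and 1.10 over both cell types, and the PolII heights of ECs, 0.34 to 0.56, lay lower than most of those of ISCs/EBs, 0.47 to 1.74.

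Act5C and Act42A, the cytoplasmic actins that every cell uses, had both Ets21c and PolII values. Act5C (chrX:5900861-5905399) had an Ets21c height of 0.50 in ISCs/EBs and 0.58 in ECs, each with an FDR of 0.0001. Its PolII height was 1.17 in ISCs/EBs (FDR 1.44e-05) and 0.34 in ECs (FDR 0.000699), so that it stood at or above 68.8% of that list in ISCs/EBs and 13.6% in ECs. Act42A (chr2R:6013910-6015689) had Ets21c heights of 0.52 in ISCs/EBs and 0.44 in ECs. With a PolII height of 1.74 in ISCs/EBs (FDR 9.04e-05), Act42A was the highest member of that list, and it was not in the PolII list of ECs.

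Act79B, an actin of adult muscles, was the actin with the largest Ets21c height, 0.84 in ISCs/EBs (FDR 0.00056) and 0.57 in ECs (FDR 0.00627), and was in neither PolII list. The other muscle actins Act57B, Act87E and Act88F were in none of the lists used here, nor were the muscle myosin genes Mhc and Mlc2. All 3 listed actins were thus on both Ets21c lists, 3 of 6 annotated actins (50%) in each cell type. The shares of protein-coding genes were 31.9% in ISCs/EBs and 30.3% in ECs.

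Actin genes are similar in coding sequence, and the first 60 coding bases of Act5C and 3 muscle actins are shown to make plain how far their reads can be told apart. Capitals mark bases that differ from Act5C at the same position.
Act5C: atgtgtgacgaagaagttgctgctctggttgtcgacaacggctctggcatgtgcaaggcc
Act79B: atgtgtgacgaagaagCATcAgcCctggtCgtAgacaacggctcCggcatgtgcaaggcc
Act87E: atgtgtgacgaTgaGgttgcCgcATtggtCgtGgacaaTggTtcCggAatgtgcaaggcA
Act88F: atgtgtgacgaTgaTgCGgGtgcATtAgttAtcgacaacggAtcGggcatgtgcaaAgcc

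Within these 60 bases Act79B differed from Act5C at 8 positions, and Act87E and Act88F at 12 each. Over the 1128 coding bases Act5C was 86.2% identical to Act42A, 88% to Act79B, 88.2% to Act88F, 90.7% to Act87E and 91% to Act57B. At the read length of 50 bases, no run of Act42A, Act79B or Act88F coding sequence was also in Act5C, while 13 runs of Act57B and 53 of Act87E were. Of all 50-base runs across the Act5C gene, 1.18% occurred more than once in the genome. Reads from the runs that Act5C shares with Act57B and Act87E cannot be assigned to one of these genes.

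Among tubulins, PolII was listed at 3 genes in ISCs/EBs, all with heights above 1, and at 0 in ECs. alphaTub84B, the main alpha-tubulin of most tissues (chr3R:7086599-7088839), had a PolII height of 1.46 in ISCs/EBs (FDR 0.00056), higher than or equal to 86.8% of that list, and was in neither Ets21c list. betaTub56D, the main beta-tubulin (chr2R:19447319-19451600), had a PolII height of 1.32 in ISCs/EBs (FDR 2.28e-06). Its Ets21c height was 0.89 in ISCs/EBs (FDR 0.00746), at or above 97.4% of the list, and neither EC list held it. betaTub60D, a beta-tubulin of differentiating tissues such as muscle (chr2R:24305881-24313099), had a PolII height of 1.05 in ISCs/EBs (FDR 1.24e-07) and an Ets21c height of 0.35 there (FDR 0.0001), and was likewise in neither EC list. The 3 tubulins with PolII values, 27.3% of those annotated, were thus in the ISC/EB list alone, beside 15.8% of protein-coding genes there. The PolII list of ECs held 6.77% of protein-coding genes, and 31.9% of all genes in the ISC/EB list.

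betaTub97EF was the tubulin on both Ets21c lists, at 0.46 in ISCs/EBs and 0.62 in ECs. alphaTub84D, also a widely used alpha-tubulin, was in the Ets21c list of ECs alone at 0.36 (FDR 0.00714). In ECs betaTub65B, listed as CG32396, had an Ets21c height of 0.67 (FDR 0.00102). The maternal and testis forms alphaTub67C and betaTub85D, alphaTub85E, and gammaTub23C and gammaTub37C, whose products start microtubules, were in none of the lists used here. alphaTub84B and alphaTub84D were 92.2% identical over 1350 coding bases and shared 79 of 1301 runs of 50 bases, and 3.6% of the 50-base runs of the alphaTub84B gene and 4.09% of those of alphaTub84D occurred more than once in the genome. Reads from these runs cannot be assigned to either gene.

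**Figure D2:**
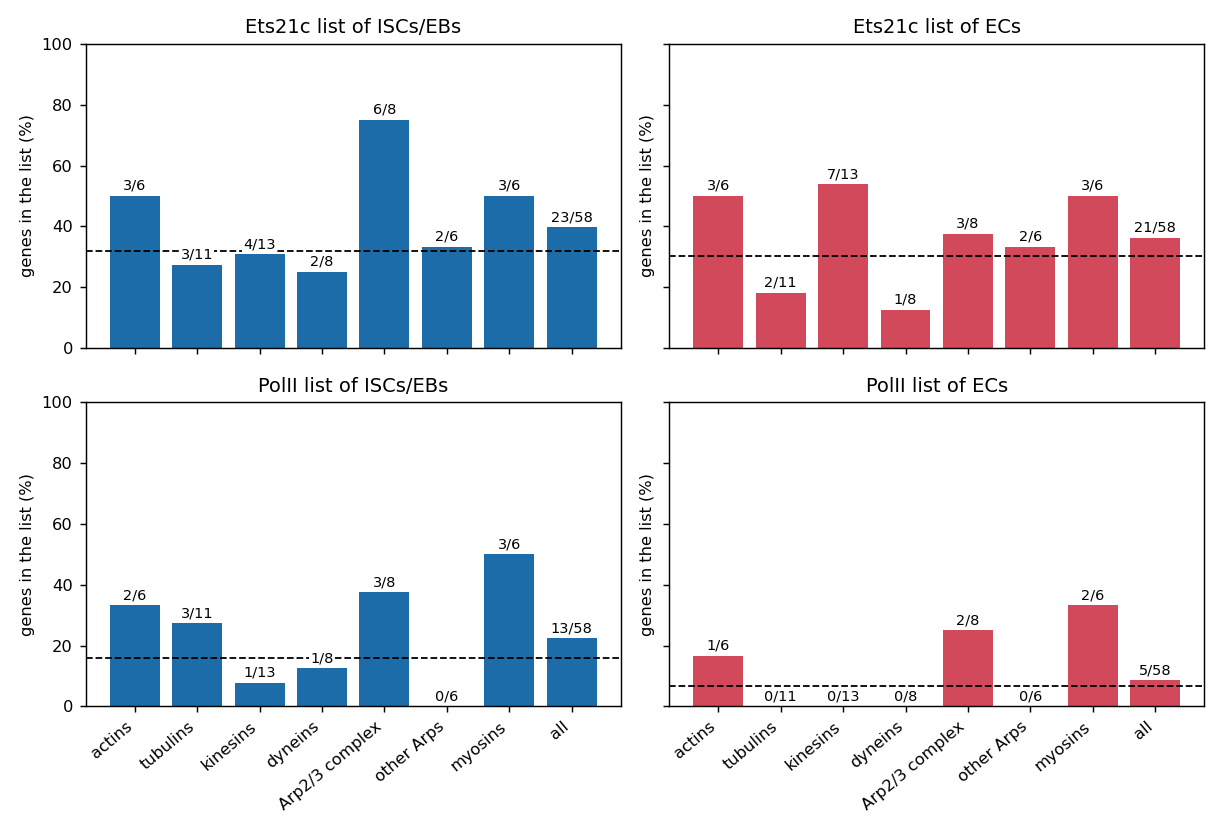
Share of the annotated genes of each class (x axis) that was in each of the 4 lists (y axis, percent), with the count of listed over annotated genes above each bar; the dashed line is the share of all protein-coding genes in that list. The Arp2/3 complex had the highest share in the Ets21c list of ISCs/EBs (6 of 8), kinesins in that of ECs (7 of 13), and myosins in the PolII list of ISCs/EBs (3 of 6). Listed genes were counted by the symbol in the list, so the tubulin bar for Ets21c in ECs (2 of 11) leaves out betaTub65B, listed there as CG32396.

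Kinesins, the largest class with 13 annotated genes, had 4 genes in the Ets21c list of ISCs/EBs (30.8%) and 7 in that of ECs (53.8%). The shares of protein-coding genes in these lists were 31.9% and 30.3%. In ECs, Klp10A, Klp3A, Klp67A and Khc-73 shared their height and FDR with another listed gene nearby. Only 1 kinesin, Klp67A, had a PolII value, in ISCs/EBs (7.69%, beside 15.8% of protein-coding genes). Klp3A, a kinesin of the spindle midzone needed for cytokinesis, had the largest kinesin height in ISCs/EBs, 0.79 (FDR listed as 0), and 0.52 in ECs (FDR 0.00047). Klp67A, a kinesin that shortens spindle microtubules (chr3L:9362636-9367046), had Ets21c heights of 0.61 in ISCs/EBs and 0.62 in ECs, and a PolII height of 0.52 in ISCs/EBs (FDR 0.0071), near the low end of that list. Khc-73, a kinesin that takes part in orienting the spindle, had Ets21c heights of 0.60 in ISCs/EBs and 0.47 in ECs. These 3 were the kinesins on both Ets21c lists.

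The other kinesins had an Ets21c value in a single cell type. Klp10A, a microtubule depolymerase of spindle poles, had the largest kinesin height in ECs, 0.68 (FDR 0.00724). In ECs alone, Klp98A, a motor of endosomes, was at 0.51, Klp31E at 0.47 and Klp64D, a motor subunit of kinesin-2, at 0.43. Klp54D was in the list of ISCs/EBs alone at 0.41. The gene for the conventional kinesin heavy chain, Khc, was in none of the lists used here, and the same held for Klp61F, which slides spindle microtubules apart, and for Klp59C, Klp59D and Klp68D.

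Of the dyneins, Dhc64C, the heavy chain of cytoplasmic dynein, was in the Ets21c list of ISCs/EBs alone, at 0.60 (FDR 3e-05). Dhc62B, a heavy chain of the axonemal kind, had Ets21c heights of 0.54 in ISCs/EBs and 0.56 in ECs. Dlc90F, a light chain of cytoplasmic dynein, had a PolII height of 1.41 in ISCs/EBs (FDR 0.00436) and no other value. With 816 bp and 3 GATC sites, Dlc90F was among the shortest members, so its height rested on few fragments. Dhc1, Dhc16F, Dhc36C, Dhc93AB and Dhc98D were in none of the lists used here.

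Every one of the 8 annotated Arp2/3 complex genes was in at least 1 list, beside 33 of the 58 annotated genes of the symbol rule. Over all genes, 7153 were in at least 1 list, and the annotation holds 17873. Ets21c was listed at 6 of them in ISCs/EBs (75%) and 3 in ECs (37.5%), and PolII at 3 in ISCs/EBs (37.5%) and 2 in ECs (25%). The shares of protein-coding genes in these lists were 31.9% and 30.3% for Ets21c, and 15.8% and 6.77% for PolII. Arpc2, a core subunit of the complex (chr2L:20417057-20423027), had Ets21c heights of 0.65 in ISCs/EBs and 0.77 in ECs, which was the largest height of a member in ECs and at or above 94% of that list. Its PolII height was 0.64 in ISCs/EBs (FDR 0.000599). Arp3, an actin-related subunit (chr3L:8113407-8115902), had Ets21c heights of 0.64 in ISCs/EBs (FDR 6e-05) and 0.27 in ECs (FDR 0.0001), at or above 78.2% of the list in ISCs/EBs and 1.65% in ECs, and a PolII height of 0.86 in ISCs/EBs. Arp3 in ECs was thus the lowest Ets21c value of any member, and lay below the minimum log2 ratio of 0.3 stated in the paper's methods.

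Arpc5 (chr2L:2580292-2581423) had Ets21c heights of 0.43 in ISCs/EBs (FDR 0.0071) and 0.68 in ECs (FDR 3e-05), and its PolII value, 0.56, was in ECs alone (FDR 0.00639) and was the highest of the 5 members there. Ets21c was listed in ISCs/EBs alone at Arpc4, at 0.61, Arpc3B, at 0.41, and Arpc1, at 0.33. Arp2, the other actin-related subunit, had a PolII height of 0.49 in ISCs/EBs (FDR 0.00483) and Arpc3A one of 0.435 in ECs (FDR 0.00792), and both were in no Ets21c list. Most subunits of the complex were thus in the Ets21c list of ISCs/EBs, and fewer in each of the other lists. In the Ets21c list of ISCs/EBs, Arpc2, Arpc3B, Arpc4 and Arpc5 shared their height and FDR with another listed gene. Arpc3A, Arpc3B, Arpc4 and Arpc5 hold 2 to 4 GATC sites each.

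Of the 6 annotated genes of actin-related proteins outside that complex, 2 (33.3%) were in each Ets21c list and 0 in each PolII list. The shares of protein-coding genes were 31.9% in ISCs/EBs and 30.3% in ECs for Ets21c, and 15.8% and 6.77% for PolII, so the Ets21c share was near that of other genes. Arp1, which forms the short filament of dynactin, the partner of dynein, was at 0.32 in ISCs/EBs and 0.64 in ECs. Of the nuclear forms, Arp6 was at 0.48 in ISCs/EBs alone, and Arp8, a subunit of the INO80 chromatin remodeller, at 0.66 in ECs alone. Arp5, Arp10 and Arp53D were in none of the lists used here.

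A pair of unconventional myosin genes, Myo61F and Myo28B1, had the largest Ets21c heights of all members in ISCs/EBs, while in ECs Arpc2 was higher than either. Myo61F, a class I myosin (chr3L:1318480-1329617), had an Ets21c height of 1.10 in ISCs/EBs (FDR 0.0001) and 0.63 in ECs (FDR 7e-05), and PolII heights of 1.01 in ISCs/EBs (FDR 1.94e-10) and 0.45 in ECs (FDR 2.81e-05). Myo28B1, a myosin of class VII (chr2L:7666047-7689459), was at 1.07 in ISCs/EBs and 0.76 in ECs for Ets21c, with FDRs listed as 0, and at 1.10 in ISCs/EBs and 0.46 in ECs for PolII. The Ets21c heights of Myo61F and Myo28B1 in ISCs/EBs were at or above 99.7% and 99.6% of the list, and in ECs at or above 79.5% and 93.6%. In both cell types Myo61F shared its Ets21c height and FDR with the overlapping gene CG9184, and Myo28B1 with Slob, so these heights may not belong to the myosins alone.

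Myo31DF, the brush border class I myosin that also sets left-right asymmetry (chr2L:10491814-10506779), had Ets21c heights of 0.54 in ISCs/EBs and 0.63 in ECs. Its PolII height was 0.47 in ISCs/EBs (FDR 1.1e-05), at or above 10.6% of that list, and it was not in the PolII list of ECs, although the EC driver bears its older name. Myo10A, Myo81F and Myo95E were in none of the lists used here. As a class, the myosins were on both Ets21c lists at 3 of 6 genes. That was 50% in each cell type, beside 31.9% of protein-coding genes in ISCs/EBs and 30.3% in ECs.

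**Figure D3:**
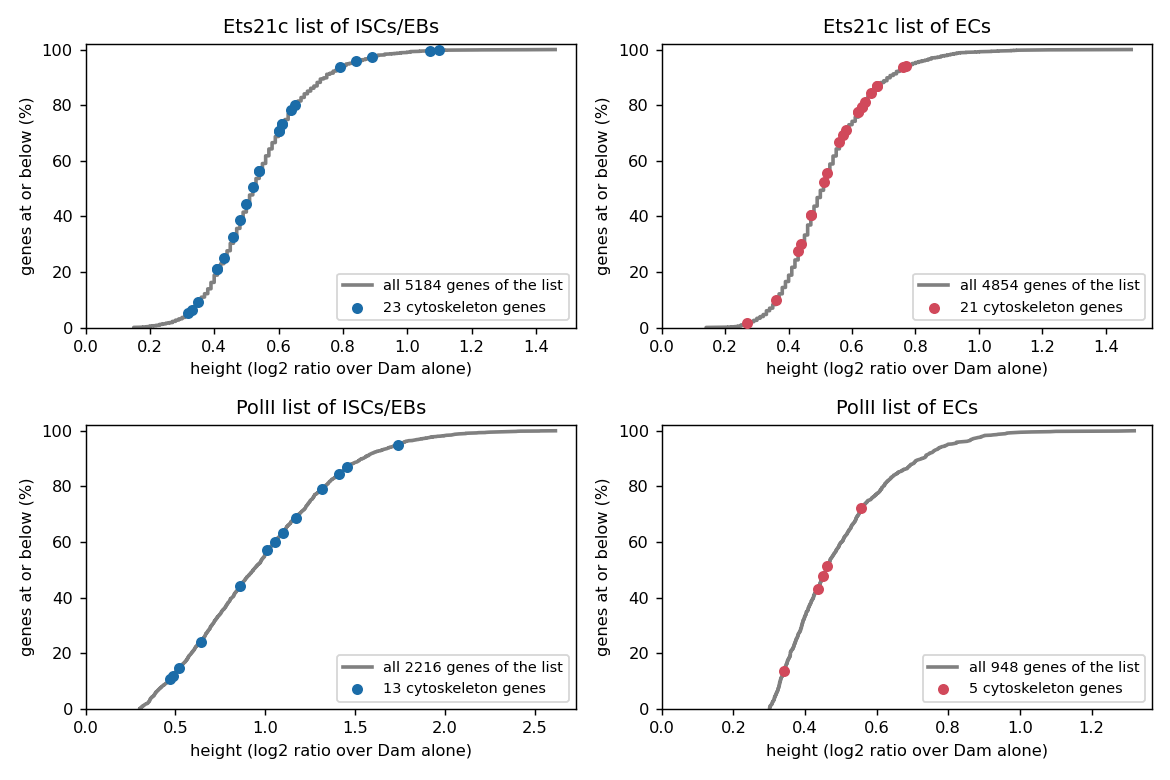
Cumulative share of all genes of each list (grey line, y axis, percent at or below) against height (x axis, log2 ratio over Dam alone), with the members as points on the line. In the Ets21c list of ISCs/EBs the members ran from 0.32 to 1.10 and in that of ECs from 0.27 to 0.77, with ranks from 5.15% to 99.7% in ISCs/EBs and from 1.65% to 94% in ECs.

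As a group the members lay near the middle of each list. For Ets21c their median height was 0.54 beside 0.52 for all 5184 genes in ISCs/EBs, and 0.58 beside 0.51 for all 4854 genes in ECs. For PolII it was 1.05 beside 0.93 for 2216 genes in ISCs/EBs, and 0.45 beside 0.46 for 948 genes in ECs. Above the list's own median were 13 of 23 members in the Ets21c list of ISCs/EBs, 14 of 21 in that of ECs, and, for PolII, 8 of 13 in ISCs/EBs and 2 of 5 in ECs.

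Between the cell types, 15 members were in both Ets21c lists, 65.2% of the members listed in ISCs/EBs and 71.4% of those listed in ECs. Over all genes, 3429 were in both, 66.1% of the list of ISCs/EBs and 70.6% of that of ECs, so the members were shared between the cell types about as often as other genes. The 8 listed in ISCs/EBs alone were betaTub56D, betaTub60D, Klp54D, Dhc64C, Arpc1, Arpc3B, Arpc4 and Arp6. Listed in ECs alone were alphaTub84D, Klp10A, Klp31E, Klp64D, Klp98A and Arp8.

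Among the 15 shared members the Ets21c height was higher in ISCs/EBs for 7 and lower for 8, with a median difference of -0.01 (ISCs/EBs minus ECs), beside 56.3% higher and a median of 0.03 over all shared genes. The difference was largest in favour of ISCs/EBs for Myo61F, at 0.47, Arp3, at 0.37, and Myo28B1, at 0.31, followed by Act79B and Klp3A at 0.27 each. It was largest in favour of ECs for Arp1, at -0.32, Arpc5, at -0.25, and betaTub97EF, at -0.16. Subunits of the Arp2/3 complex thus lay on both sides, with Arp3 higher and Arpc2 and Arpc5 lower in ISCs/EBs. The difference of Arp3 rests on an EC height of 0.27, below the minimum of 0.3 stated in the paper's methods.

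For PolII, 3 members were in both lists, Act5C, Myo28B1 and Myo61F, and each was higher in ISCs/EBs, by 0.83, 0.64 and 0.56 on the log2 scale. So were 705 of the 708 genes in both PolII lists, with a median difference of 0.77, so the direction was that of the lists as a whole. PolII was listed in ISCs/EBs alone at 10 members, and in ECs alone at Arpc3A and Arpc5. The 3 members in both lists were 23.1% of the members listed in ISCs/EBs and 60% of those listed in ECs. Of all listed genes, the 708 in both were 31.9% of the list of ISCs/EBs and 74.7% of that of ECs.

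**Figure D4:**
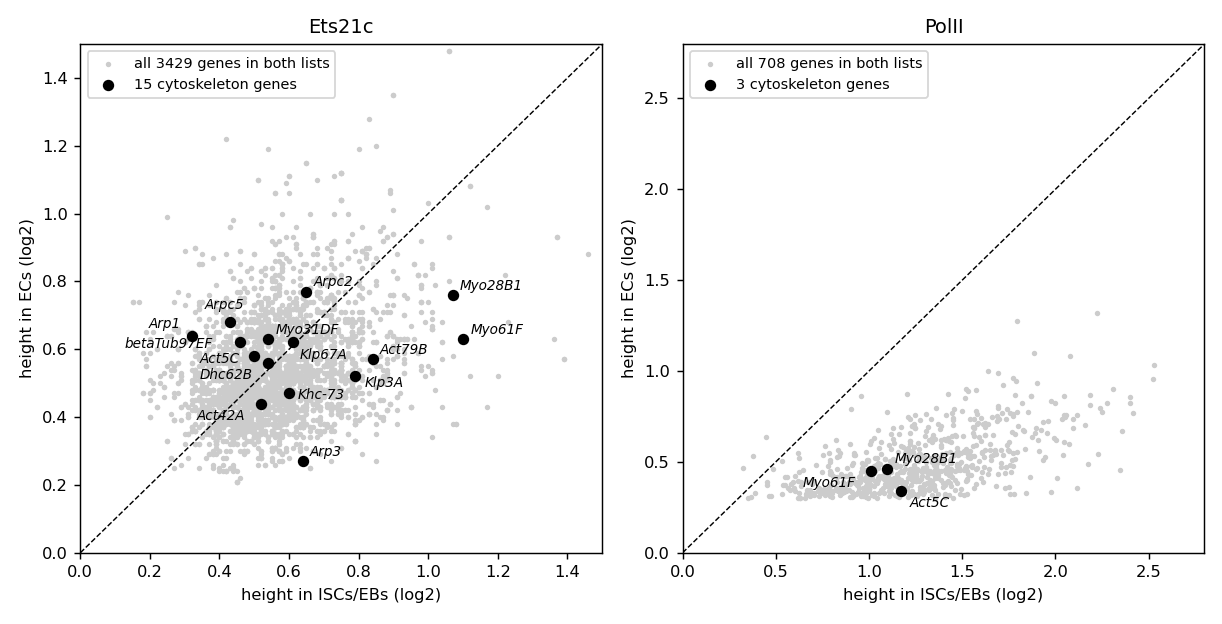
Height in ISCs/EBs (x axis, log2) against height in ECs (y axis, log2) for Ets21c (left) and PolII (right); grey points are all genes in both lists, black named points are members, and the dashed line marks equal heights. The 15 members of the Ets21c panel fall on both sides of the line, and the 3 of the PolII panel fall below it with nearly all other genes.

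A height does not always belong to a member alone, because a peak could be assigned to more than 1 gene. In the Ets21c list of ISCs/EBs, 10 of 23 members had exactly the height and FDR of another listed gene that overlapped them or lay within 10000 bp, and in that of ECs 15 of 21 did. The share of all listed genes that did so was not counted, so these counts do not set the members apart from other genes. Myo28B1 shared its values with Slob in both cell types, Myo61F with CG9184, Klp67A with mRRF1 and CG34456, Arp1 with CG31347, Dhc62B with CG13933 and Arpc5 with ND-B17.2. In ISCs/EBs Arp6 shared its values with MagR and CG11679, Arpc4 with WDR79 and B9d2, and Arpc3B with CG4991 and CG16700. In ECs the pairs were Arp8 with Srx, Klp3A with egh, Klp10A with CG44385, Arp3 with Nulp1, Act42A with Pngl, Khc-73 with CG30471 and alphaTub84D with Rtnl2. Arpc2 shared its values only with small nucleolar RNA genes inside it, and Act5C in ECs with a noncoding RNA gene beside it. Act79B, betaTub56D, betaTub97EF, Dhc64C and Myo31DF had Ets21c values of their own wherever they were listed, and so did every PolII value of a member.

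Genes that work with the members, taken from lists of cytoskeleton genes outside the symbol rule, were counted in the same way. Of 116 such genes, Ets21c was listed at 60 (51.7%) in ISCs/EBs and 53 (45.7%) in ECs, and PolII at 36 (31%) in ISCs/EBs and 14 (12.1%) in ECs. Beside them stood 39.7%, 36.2%, 22.4% and 8.62% of the annotated genes of the symbol rule, counted by listed symbol. Of protein-coding genes, the shares were 31.9%, 30.3%, 15.8% and 6.77%. The differences were not tested. Of 19 genes of myosin II, other myosins and the cortex, 14 (73.7%) were in each Ets21c list. In ISCs/EBs the largest height was that of shot, a spectraplakin that links actin to microtubules, with 1.01 there and 0.69 in ECs. Next in ISCs/EBs were kst, a heavy beta-spectrin (0.86 in ISCs/EBs and 0.69 in ECs), ck, a class VII myosin (0.73 in ISCs/EBs and 0.61 in ECs), and zip, the myosin II heavy chain (0.68 in ISCs/EBs and 0.88 in ECs).

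Of 30 genes of actin assembly and turnover, Ets21c was listed at 15 (50%) in ISCs/EBs and 15 (50%) in ECs. PolII was listed at 15 (50%) in ISCs/EBs and 7 (23.3%) in ECs. Protein-coding genes stood at 31.9% and 30.3% for Ets21c, and at 15.8% and 6.77% for PolII. The largest Ets21c heights in ISCs/EBs were those of the nucleator spir (0.83 in ISCs/EBs and 0.44 in ECs), the profilin gene chic (0.79 in ISCs/EBs and 0.48 in ECs), the formin Frl (0.78 in ISCs/EBs and 0.49 in ECs) and the GTPase Rac2 (0.73 in ISCs/EBs and 0.84 in ECs). Of the 5 subunits of the SCAR complex, which activates Arp2/3, Sra-1 had an Ets21c height of 0.50 in ISCs/EBs and HSPC300 a PolII height of 0.47 in ECs, and SCAR, Hem and Abi were in none of the lists used here. WASp, another activator, had Ets21c heights of 0.55 in ISCs/EBs and 0.51 in ECs and a PolII height of 0.73 in ISCs/EBs.

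The remaining lists held partners of microtubules. Of protein-coding genes, 31.9% were in the Ets21c list of ISCs/EBs and 30.3% in that of ECs. Of 16 other kinesins and kinesin adaptors, Ets21c was listed at 8 (50%) in ISCs/EBs and 7 (43.8%) in ECs. Pat1 was at 0.77 in ISCs/EBs alone, and the minus-end kinesin ncd at 0.57 in ISCs/EBs and 0.61 in ECs. The mitochondrial adaptor gene milt was at 0.53 in each, and the kinesin-3 gene unc-104 at 0.52 in ISCs/EBs alone. Of 21 dynein and dynactin genes and regulators, Ets21c was listed at 9 (42.9%) in ISCs/EBs and 5 (23.8%) in ECs. The largest heights in ISCs/EBs were those of Zw10 (0.78 in ISCs/EBs and 0.64 in ECs) and egl (0.74 in ISCs/EBs and 0.46 in ECs). Next came Lis-1 (0.64 in ISCs/EBs and 0.43 in ECs) and the light intermediate chain gene Dlic (0.63 in ISCs/EBs and 0.67 in ECs). PolII was listed at 0 of these 21 genes in ECs, beside 6.77% of protein-coding genes. Of 32 genes of microtubule dynamics and nucleation, Ets21c was listed at 15 (46.9%) in ISCs/EBs and 12 (37.5%) in ECs. The largest heights in ISCs/EBs were those of the plus-end protein gene chb (0.80 in ISCs/EBs and 0.62 in ECs) and the augmin gene dgt5 (0.73 in ISCs/EBs alone). Next came tacc (0.66 in ISCs/EBs and 0.51 in ECs) and the plus-end protein gene Eb1 (0.56 in ISCs/EBs and 0.48 in ECs).

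**Figure D5:**
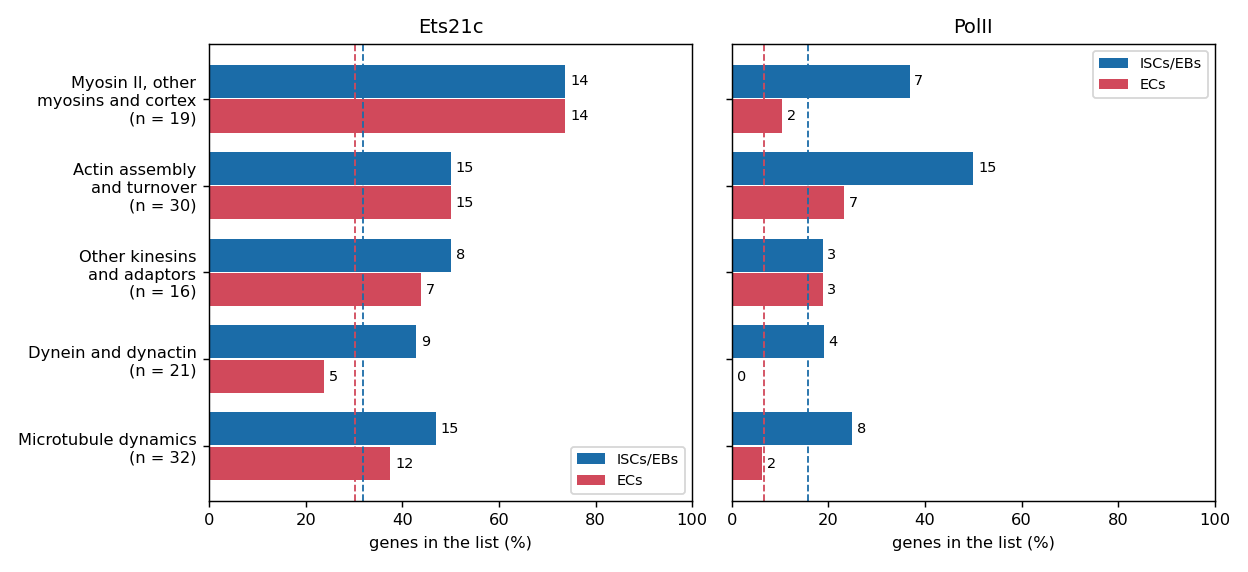
Share of the genes of 5 lists of cytoskeleton partners (rows) that was in the Ets21c (left) and PolII (right) lists (x axis, percent), with the count of listed genes beside each bar; blue bars are ISCs/EBs, red bars are ECs, and dashed lines of the same colours are the shares of all protein-coding genes. Myosin II and cortex genes had the highest Ets21c share, 14 of 19 in each cell type, and dynein and dynactin genes had 0 of 21 in the PolII list of ECs.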

How the data were processed

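The study profiled 18 samples by TaDa, 3 of each of 6 groups taken from the labels. Per the paper's methods, the authors aligned single-end reads with the damidseq pipeline and made log2 ratios of fusion over Dam alone per GATC fragment. Ets21c peaks spanned at least 2 fragments at an FDR under 1% and had to be present in both replicates kept, since replicate 2 was omitted as noisy. PolII ratios were averaged over transcripts, and carry the least favourable FDR among replicates. The deposited log2 heights and the deposited FDRs, which are not p-values, were used as given. The methods state a minimum Ets21c log2 ratio of 0.3, but deposited heights ran from 0.15 in ISCs/EBs and 0.14 in ECs. The methods name dm6 and the submitters' processing notes dm3. Coordinates printed here are those of the annotation of Ensembl release 115 (FlyBase 6.54, dm6), not of the lists.

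Listed genes were matched to its 17873 genes by FlyBase ID, then symbol or synonym (5172 of 5184, 4843 of 4854, 2215 of 2216 and 947 of 948). The 2215 matched genes in the PolII list of ISCs/EBs stood for 2214 annotated genes. The gene jus, repeated in 1 list, was counted once. Every member was named, in full where both proteins were listed in a cell type or where its Ets21c height was among the 3 largest. Of each partner list, the top 4 by Ets21c height in ISCs/EBs were named, and SCAR, Hem, Abi, Sra-1, HSPC300 and WASp were added after their values had been seen. Members and lists were chosen with earlier results of these data known. Upstream sequence came from the RefSeq copy of release 6. Counting and sequence matching were tested on simulated data. Alternatives were stricter heights and FDRs, current symbols, members without an equal neighbour, members listed in both cell types, and leaving out Arp5, Arp6 and Arp8. Analyses used python 3.11.15, numpy 2.4.6 and matplotlib 3.10.9.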

Additional observations from a re-analysis of the deposited data

How the results depend on the processing

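Of 43 alternatives for the counts and medians of members, 33 left the value within 1.5 times the reported count or within 0.05 of the reported median. At heights of at least 0.5 the Ets21c list of ISCs/EBs held 15 members, both Ets21c lists 9, the PolII list of ECs 1 and both PolII lists 0. At an FDR of at most 0.001 the PolII list of ECs held 3 members and the median Ets21c height of members in ISCs/EBs was 0.60, as it also was over members listed in both cell types. Without members that shared height and FDR with an adjacent gene, 13 members were in the Ets21c list of ISCs/EBs, 6 in that of ECs and 3 in both, so the counts for Ets21c rest in part on peaks assigned to several genes. The background shares were not reduced in the same way. With protein-coding genes as the background in place of all annotated genes, the shares listed were 31.9%, 30.3%, 15.8% and 6.77%. No paired analysis was possible because each list gives 1 pooled value per gene, and for the same reason no replicate could be left out. The cause of these changes was not otherwise tested. Read depth is unknown.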
